A study of Mus musculus with 12 samples.

Results

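The ADAM, ADAMTS, ADAMTS-like, MMP and TIMP genes, which encode the metalloproteases of the extracellular matrix and cell surface and their tissue inhibitors, were followed in corneal endothelial cells (CEC) of *Slc4a11* knockout mice of both sexes. Members were every protein-coding gene whose symbol is Adam, Adamts, Adamtsl, Mmp or Timp followed by a number, which gave 49 of the 15838 genes with values, out of 83 such genes annotated in GENCODE M21. The 49 genes were 15 ADAM, 14 ADAMTS, 5 ADAMTSL, 11 MMP and 4 TIMP genes. RNAseq was done on the Descemet membrane with its endothelium, at 10 weeks of age, in 12 libraries with 3 in each of 4 groups: *Slc4a11*+/+ (WT) males, *Slc4a11*-/- (KO) males, WT females and KO females. The KO mice lack exons 9 to 13 of *Slc4a11* in every cell, through gene targeting in the germline, and KO and WT mice were C57BL/6 littermates from heterozygous crosses. *Slc4a11* encodes a membrane transporter of the corneal endothelium, and its loss causes corneal edema in mice and congenital hereditary endothelial dystrophy in people. The sources differ on whether the membranes of 1 mouse or of several entered a library, so the spread between libraries may not be that between mice.

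Metalloproteases of these families cut proteins with a zinc ion held by a conserved histidine motif. ADAM proteins sit in the membrane and release the outer parts of neighboring membrane proteins (shedding), ADAMTS proteins are secreted and cut proteoglycans, procollagens and microfibril proteins, and ADAMTS-like proteins are secreted relatives without a protease domain. MMPs degrade collagens and other matrix proteins, and TIMPs bind and block them and some ADAM and ADAMTS enzymes. The corneal endothelium rests on Descemet membrane, a thick basement membrane that it secretes, and the collagenous stroma lies on the other side. When the open reading frames of the 49 genes were translated from GENCODE M21 transcripts, the motif HEXXHXXGXXH (X is any residue) was found in 29. In another 5 (*Adamts1*, *Adamts4*, *Adamts8*, *Adamts9* and *Adamts15*) the same histidines were present but the glycine was replaced, a wider search added after the data had been seen. The 15 members without either form were the 4 TIMP and 5 ADAMTSL genes and *Adam4*, *Adam5*, *Adam11*, *Adam22*, *Adam23* and *Adam32*.

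The values given for each gene were a fitted log2 fold change (log2FC), the mean log2 CPM (counts scaled to the size of the library) over all libraries, a moderated t and a p, from limma with voom weights. KO minus WT was read directly in males, and in females as the sum of the male effect and the interaction, which is the female effect minus the male effect. No value per library was at hand, so errors are standard errors (SE, log2FC divided by t), group levels are estimates without an error, and how deeply each library was sequenced is unknown here. A gene was called at a Benjamini-Hochberg adjusted p under 0.05 over the 15838 genes.

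As the check of the knockout, *Slc4a11* (chr2:130684113-130697519, GRCm38, minus strand) was lower in KO CEC by a log2FC of -1.83 (SE 0.22) in males and -2.89 (SE 0.22) in females, with estimates of 3076 CPM (WT) and 865 CPM (KO) in males, 4681 CPM and 633 CPM in females. Estimates of sex-linked genes differed between WT and KO females, with lower *Xist* and higher Y-linked values in KO, none of them called. In females, where their estimated levels were 0.868 CPM or less, the log2FC of 5 Y-linked genes was 2.01 to 3.99, with SE of 1.28 to 3.01 against 0.26 to 0.44 in males. The female SE belongs to these low levels and covers WT and KO females together, so it does not show which group varied. *Xist*, expressed from the inactive X chromosome, was estimated at 451 CPM in WT and 52.6 CPM in KO females (log2FC -3.10, SE 1.52, not called). In males, at 2.15 CPM in WT and 1.67 CPM in KO, the SE of its effect was 5.35. No library could be left out, and whether a female KO library was mixed or mislabelled could not be checked. The part of these differences in the effects in females and in the interaction was not tested, for members and list genes alike. The estimated sum of 10 corneal endothelial markers was 28213 to 29716 CPM in the 4 groups, and *Slc4a11* was the 1 marker called. Markers of neighboring tissue moved with genotype. The summed level of 8 measured stromal markers of 9 was 16899 CPM in WT and 12095 CPM in KO males, against 17231 and 9273 CPM in females, and 7 of the 8 were lower in the mean of both sexes. The summed level of 9 measured leukocyte markers of 10 was 75.0 CPM in WT and 41.7 CPM in KO males, against 51.0 and 79.9 CPM in females, and none was called in either sex, with 4 and 2 at an unadjusted limma p under 0.05. In the mean effect 1 leukocyte marker was lower, *Cd74* (log2FC -0.79, adjusted p = 0.0274). The higher sum in KO females rested on *Lyz2*, at 13.7 and 43.4 CPM in WT and KO females, and without it, a sum added after the data had been seen, the other 8 summed to 37.3 and 36.5 CPM. For trabecular meshwork (4 markers) the sums were 1966 and 1345 CPM in WT and KO males and 1335 and 1445 CPM in females, with *Mgp* and *Myoc* lower in males. The higher sum in KO females rested on *Chil1*, at 42.8 and 355 CPM in WT and KO females (not called), and the other 3 markers, again a sum added later, had 1293 and 1089 CPM and log2FC below 0. Sums for vascular endothelium, corneal epithelium, iris pigment cells and lens were lower in KO than in WT in both sexes, with 2, 1, 3 and 0 markers called in the mean effect (0 lens markers had an unadjusted limma p under 0.05), and no muscle or nerve marker was called. In bulk RNA, fewer cells of a type and less RNA per cell cannot be told apart.

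**Figure D1:**
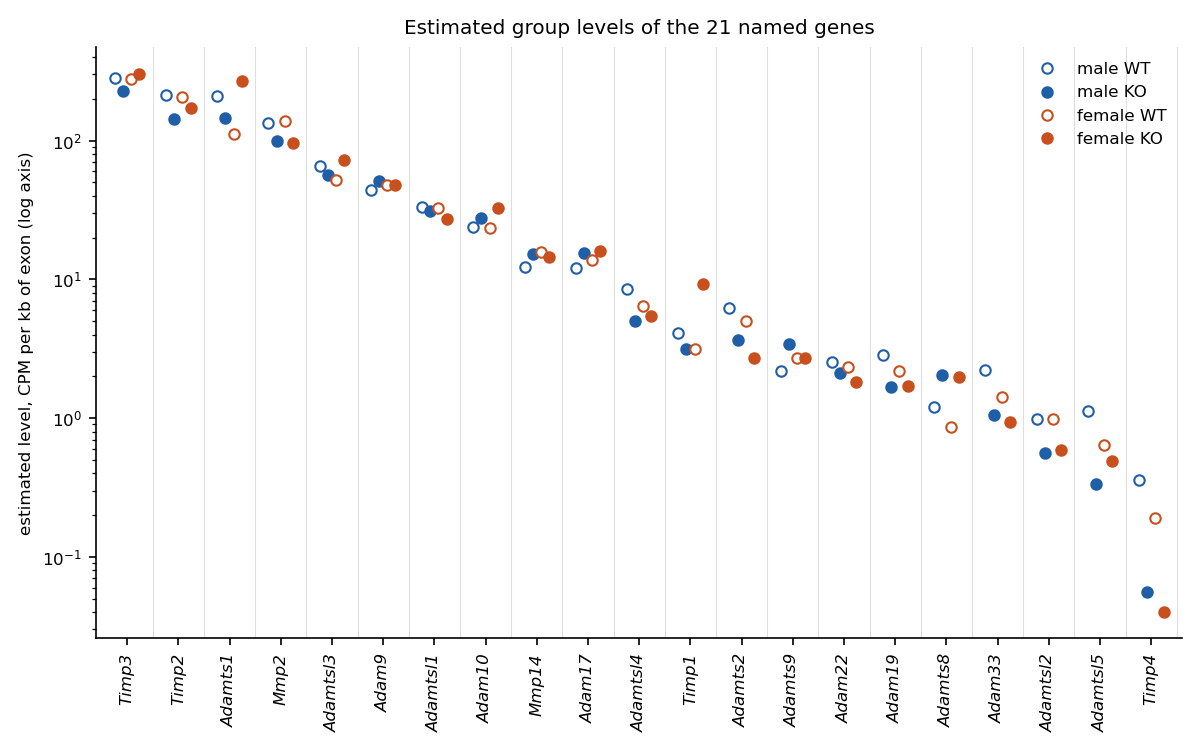
Estimated level of the 21 named genes in CPM per kilobase of exon (log axis) in WT (open) and KO (filled) groups of males (blue) and females (orange), ordered by the mean level. *Timp3*, *Timp2*, *Adamts1* and *Mmp2* are the 4 highest in every group. With the sex difference read as the mean over genotypes, *Adamts1* has its lowest level in WT females and its highest in KO females.

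At the level of all libraries, the inhibitors *Timp3* and *Timp2* led the 49 genes. Per kilobase of exon, the mean level was 271 CPM for *Timp3*, 182 CPM for *Timp2*, 173 CPM for the proteoglycan-cleaving *Adamts1* and 116 CPM for the gelatinase *Mmp2*. Next came *Adamtsl3* with 61.2, *Adam9* with 47.7, *Adamtsl1* with 31.1, *Adam10* with 26.7, *Mmp14* with 14.4 and *Adam17* with 14.3 CPM per kb. The order of neighbors in this list was not tested, because these levels carry no error. Without the division by length, the mean level ran from 0.256 CPM (*Mmp12*) to 2210 CPM (*Timp3*), 21 members had at least 10 CPM, and 6 had under 1 CPM. The median SE of the 49 members was 0.29 in males and 0.30 in females against 0.18 and 0.19 for all genes.

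In KO males, *Adamts8* and *Adamts9* rose and *Timp2*, *Adamtsl4*, *Adamtsl5* and *Adam19* fell. In KO females, *Adamts1*, *Adamts8* and *Adamtsl3* rose and no member fell. *Adamts8* was thus called in each sex, and *Adamts1* and *Adamtsl3* were the members whose KO effect differed between the sexes. Called members numbered 2 higher, where 2.3% of all genes were called higher in males, and 4 lower, where 3.17% were called lower. In females 3 members were called higher, against 0.474% of all genes, and 0 lower, against 0.947%, with 10 members lower at an unadjusted limma p under 0.05. In the KO effect averaged over the sexes, 4 members were higher (*Adam10*, *Adam17*, *Adamts8* and *Adamts9*), against 3.87% of all genes, and 8 were lower (*Adam19*, *Adam22*, *Adamts2*, *Adamtsl2*, *Adamtsl4*, *Adamtsl5*, *Timp2* and *Timp4*), against 5.2%. For the interaction 2 members were called, against 0.543% of all genes. When a log2FC above 1 in size was also required, 1 member was called in males (*Adamtsl5*, 1.91% of all genes), 2 in females (*Adamts1* and *Adamts8*, 0.587%) and 1 for the interaction (*Adamts1*, 0.41%). In all, 14 of the 49 members were called in at least 1 of these KO comparisons and 35 in none. The share of all genes called in at least 1 of them is not given here, so no excess is read from these counts.

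Most log2FC of the 49 genes were below 0. The median member had a log2FC of -0.34 in males, where all genes had -0.02, and -0.25 in females, where all genes had 0.01. In males 12 of the 49 members had a log2FC above 0, and in females 17. The signs in the sexes were opposite for 19 members, or 38.8%, against 32.6% of all genes. Between the sexes without regard to genotype, 0 members were called by limma, against 0.0316% of all genes, and 0 members had an unadjusted p under 0.05, where 592 of all genes did.

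**Figure D2:**
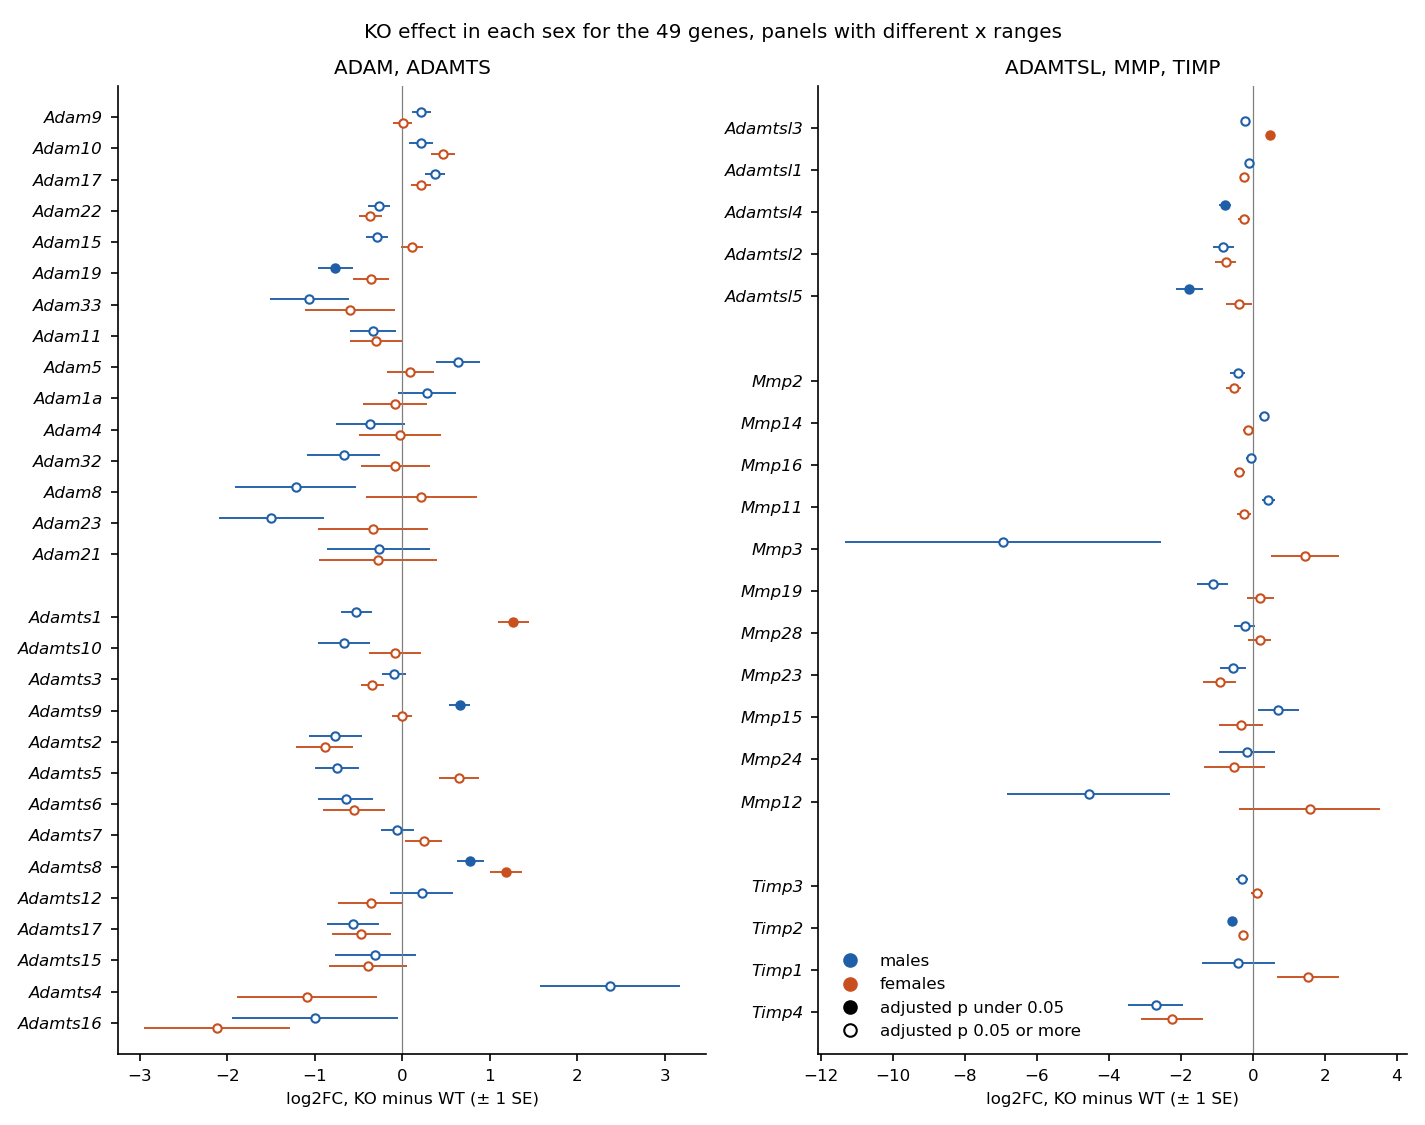
KO minus WT log2FC of all 49 genes in males (blue) and females (orange) with bars of 1 SE, by family and, within a family, from the highest to the lowest mean level; filled points passed an adjusted p of 0.05 and the panels have different ranges. Bars widen toward the weakly expressed genes, the filled points of ADAMTS genes lie above 0, and filled points on both sides of 0 are seen among ADAMTSL genes.

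The promoters of *Adamts1*, *Adamtsl3* and *Adamts9* are shown because the first pair had the called difference between the sexes and *Adamts9* had an effect in males and none of that size in females. Each sequence is the 250 bases before the RefSeq start on the strand of the gene (GRCm38.p6), at chr16:85803114-85803363 (minus strand), chr7:82335444-82335693 (plus strand) and chr6:92943535-92943784 (minus strand). Capitals mark the Sp1 motif GGGCGG on either strand.
Adamts1: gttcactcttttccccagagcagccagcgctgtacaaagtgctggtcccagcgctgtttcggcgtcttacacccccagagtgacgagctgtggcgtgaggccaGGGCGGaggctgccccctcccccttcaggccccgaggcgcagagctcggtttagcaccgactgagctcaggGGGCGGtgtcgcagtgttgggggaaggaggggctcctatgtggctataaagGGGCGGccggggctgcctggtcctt
Adamtsl3: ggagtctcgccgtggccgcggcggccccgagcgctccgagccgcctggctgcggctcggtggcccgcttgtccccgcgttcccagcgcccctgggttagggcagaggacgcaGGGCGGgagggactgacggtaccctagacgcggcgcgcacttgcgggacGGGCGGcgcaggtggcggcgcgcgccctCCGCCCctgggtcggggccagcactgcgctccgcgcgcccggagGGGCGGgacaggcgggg
Adamts9: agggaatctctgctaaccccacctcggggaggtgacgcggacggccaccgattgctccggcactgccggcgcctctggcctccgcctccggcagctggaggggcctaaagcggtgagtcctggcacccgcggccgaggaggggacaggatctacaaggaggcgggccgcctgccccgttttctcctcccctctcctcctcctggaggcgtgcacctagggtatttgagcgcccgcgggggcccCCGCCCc
The motif occurred 3 times in *Adamts1*, 4 times in *Adamtsl3* and 1 time in *Adamts9*. Of the 31 members with a promoter sequence, 20 (64.5%) held GGGCGG, as did 35.4% of all 27025 genes with such a sequence. Unlike the members, these genes were not filtered for protein-coding genes or for values in CEC, so the shares come from unlike sets. Of the same 31 members, 3 held the AP-1 motif TGANTCA (7.82% of all genes), 3 the E-box CACGTG (6.86%), 2 the STAT motif TTCNNNGAA (8.13%), and 0 the CRE motif TGACGTCA (1.77%), all searched on both strands, with no overlapping matches in the sequences shown. The matches describe these letters only.

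Among the hyalectanases, the ADAMTS enzymes that cut versican, aggrecan and related proteoglycans, *Adamts1* was the 1 member of 6 with a called difference between the sexes. *Adamts1* (chr16:85793827-85803113, minus strand) was estimated at 1108 CPM in WT males, 769 CPM in KO males, 589.6 CPM in WT females and 1424 CPM in KO females. The order of KO and WT was thus reversed between the sexes. The WT groups differed in the estimates as well, but this rests on reading the sex coefficient as the mean over genotypes. It was not tested, and the other reading moves these levels. KO minus WT was -0.53 (SE 0.18, adjusted p = 0.103) in males and 1.27 (SE 0.18, adjusted p = 0.00274) in females. The interaction was 1.80 (SE 0.25, 95% interval 1.26 to 2.34, adjusted p = 0.0127). The effect was called in females and for the difference between the sexes, not in males.

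*Adamts5*, the aggrecanase gene 53.06 kb from *Adamts1* on chromosome 16, was singled out after its values were seen. Its estimated levels were 23.8 CPM in WT males, 14.2 in KO males, 17.1 in WT females and 26.8 in KO females. KO minus WT was -0.75 (SE 0.25, adjusted p = 0.0956) in males and 0.65 (SE 0.23, adjusted p = 0.184) in females, and the interaction was 1.40 (SE 0.34, adjusted p = 0.0963). These signs were those of *Adamts1*, but no comparison of *Adamts5* was called.

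*Adamts8*, a secreted enzyme of the same subgroup with antiangiogenic activity, rose in KO CEC of both sexes. The estimated level of *Adamts8* (chr9:30942562-30963838) was 5.52 CPM in WT males, 9.46 in KO males, 4.01 in WT females and 9.13 in KO females, so both KO groups lay above both WT groups. The log2FC was 0.78 (SE 0.16, adjusted p = 0.0126) in males and 1.19 (SE 0.18, adjusted p = 0.00497) in females. The mean effect of 0.98 (SE 0.12, adjusted p = 0.000345) had the smallest p of the 49 members. A difference between the sexes was not called, with an interaction of 0.41 and an interval of -0.11 to 0.93. Its neighbor *Adamts15*, 20.11 kb away, had log2FC of -0.31 (SE 0.47) and -0.39 (SE 0.44) and was called in no comparison. An antisense gene on the other strand covers 10.6% of the exon bases of *Adamts8*, and whether reads were counted by strand is not given in the sources used here.

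*Adamts9*, whose product cuts versican and aggrecan, rose in KO males. It was estimated at 32.8 CPM in WT males and 51.6 in KO males, but 41.0 in WT females and 40.9 in KO females (chr6:92772699-92943492, minus strand). The log2FC in males was 0.65 (SE 0.12, adjusted p = 0.00718) and the log2FC in females was -0.00 (SE 0.12, adjusted p = 0.992). The interaction of -0.66 (SE 0.17, adjusted p = 0.11) was not called, so a difference between the sexes was not shown. A gene on the opposite strand shares 9.18% of its exon bases. *Adamts4*, picked out after its values were seen, had log2FC of 2.38 (SE 0.80, adjusted p = 0.0997) and -1.09 (SE 0.80, adjusted p = 0.527) at a mean of 1.15 CPM.

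**Figure D3:**
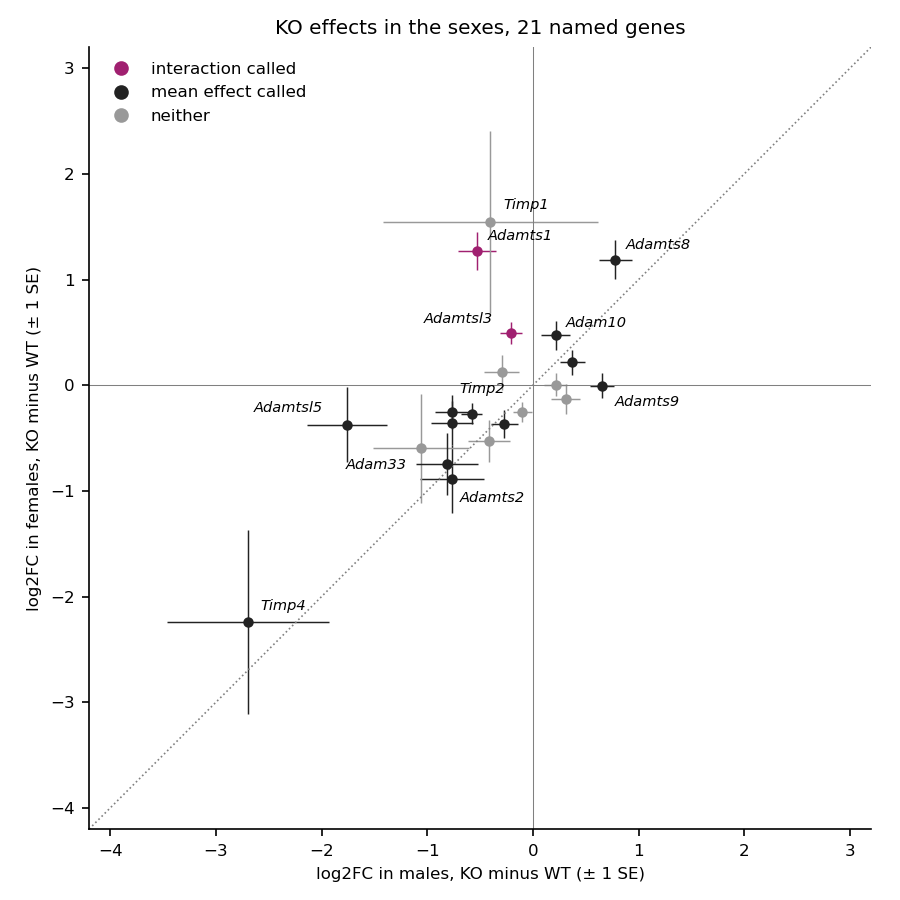
KO minus WT log2FC in males (x) and females (y) for the 21 named genes, with bars of 1 SE; the dotted line marks equal effects. *Adamts1* and *Adamtsl3* (interaction called) lie to the upper left of the origin, and *Adamts9* lies on the horizontal axis. *Adamts8* and *Timp4* lie near the dotted line, to the upper right and the lower left of the origin.

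The procollagen N-propeptidase *Adamts2*, which trims fibrillar procollagens, fell in the mean of both sexes. Its estimated level was 57.8 CPM in WT males and 33.9 in KO males, and 46.9 in WT females and 25.3 in KO females. The mean log2FC of *Adamts2* was -0.83 (SE 0.22, adjusted p = 0.0345), with -0.77 in males and -0.89 in females, neither of which passed the test alone. Of the 8 fibrillar procollagen genes measured, 0 were called in either sex (3 in males and 6 in females had an unadjusted limma p under 0.05) and 4 were lower in the mean effect. Among all genes, 5.2% were lower in the mean effect. The gene of the major stromal collagen chain, *Col1a1*, had a mean effect of -1.08 (SE 0.28, adjusted p = 0.033). *Col1a1*, *Col1a2* and *Col5a1* also count among the stromal markers, and the part of stromal RNA in these values was not tested. The related *Adamts3* was not called.

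Among the ADAMTS-like genes, 2 fell in males, 1 rose in females, and 3 were lower in the mean of both sexes. The shares of all genes with such calls were 3.17%, 0.474% and 5.2%. *Adamtsl3* (chr7:82335694-82614450) encodes a secreted glycoprotein of the matrix. It had estimated levels of 506 CPM in WT males, 439 in KO males, 401 in WT females and 565 in KO females. The log2FC was -0.21 (SE 0.10, adjusted p = 0.25) in males and 0.49 (SE 0.10, adjusted p = 0.0267) in females, with an interaction of 0.70 (SE 0.14, 95% interval 0.40 to 1.01, adjusted p = 0.0448). The direction thus matched that of *Adamts1*, and the interaction lay close to the threshold. The 9 leukocyte markers summed to fewer CPM in KO than in WT males and to more in KO than in WT females, the latter through *Lyz2*, since the other 8 had 37.3 CPM in WT and 36.5 CPM in KO females. The 4 trabecular meshwork markers summed to 1966 and 1345 CPM in WT and KO males and to 1335 and 1445 CPM in females. The higher sum in KO females came through *Chil1*, since the other 3 had 1293 CPM in WT and 1089 CPM in KO females. The part of leukocytes or of trabecular meshwork in these results was not tested.

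*Adamtsl4*, whose product binds fibrillin microfibrils and is linked to the position of the lens, fell in males from an estimated 35.7 to 21 CPM, with 27.1 and 22.8 CPM in WT and KO females. Its log2FC was -0.77 (SE 0.16, adjusted p = 0.0158) in males and -0.25 (SE 0.16, adjusted p = 0.472) in females, and the mean effect was -0.51 (SE 0.11, adjusted p = 0.0175). *Adamtsl5* had the largest called effect in males of the 49 members, a log2FC of -1.76 (SE 0.38, adjusted p = 0.0175), from an estimated 5.32 to 1.57 CPM. In females *Adamtsl5* was estimated at 3.00 and 2.31 CPM (log2FC -0.38, SE 0.35, adjusted p = 0.636). For both genes the interaction was not called. *Adamtsl2*, another fibrillin-binding member, was lower in the mean effect (-0.78, SE 0.21, adjusted p = 0.0341), with 7.93 CPM in each WT group and 4.5 and 4.73 CPM in KO males and females. *Adamtsl1*, the other abundant member of the family at 397 CPM, was not called, with a mean effect of -0.18 (SE 0.07, adjusted p = 0.0991).

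A list held 14 genes for fibrillins, latent TGF-beta binding proteins and other microfibril and elastic fiber partners of these ADAMTS and ADAMTSL proteins. From this list, 2 genes fell in males, 1 fell in females and 7 were lower in the mean effect. The shares of all genes called lower were 3.17%, 0.947% and 5.2%. The elastin gene *Eln* had a log2FC of -4.13 (SE 1.08, adjusted p = 0.0421) in males and -1.82 (SE 0.94) in females. *Ltbp2* had -3.53 (SE 0.93, adjusted p = 0.0427) and -1.45 (SE 0.74). In the mean effect the fibrillin gene *Fbn2* was lower by a log2FC of -2.72, *Ltbp1* of -1.05 and *Ltbp4* of -1.28. *Fbln5*, the gene called in females, went from an estimated 362 to 248 CPM and was named after its values were seen. The median of the list was -0.34 in males and -0.88 in females, where all genes had -0.02 and 0.01. Beside these, the stromal markers had medians of -0.53 in males and -1.08 in females, and *Mgp*, *Myoc* and *Emcn* fell in males. Their part in these values was not tested.

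Of the 6 measured genes in a list of hyalectans, link proteins and other substrates of the hyalectanases (*Bgn*, *Comp*, *Dcn*, *Fmod*, *Hapln3* and *Vcan*), 3 fell in males and 0 were called in females, where 4 had an unadjusted limma p under 0.05. Among all genes, 3.17% fell in males. Versican, *Vcan*, was estimated at 4.80 CPM in WT males, 1.49 in KO males, 5.18 in WT females and 2.21 in KO females. The log2FC of *Vcan* was -1.69 (SE 0.44, adjusted p = 0.0415) in males and -1.23 (SE 0.38, adjusted p = 0.131) in females. The other genes called in males were *Bgn* and *Fmod*, small proteoglycans that bind collagen.

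Among the inhibitors, *Timp2* fell in males and *Timp4* in the mean of both sexes, while *Timp1* and *Timp3* were not called. *Timp2* (chr11:118301069-118355740, minus strand), which blocks MMPs and also takes part in the activation of pro-MMP2 by MMP14, had estimated levels of 832 CPM in WT males, 557 in KO males, 809 in WT females and 671 in KO females. Both KO groups lay below both WT groups. The log2FC was -0.58 (SE 0.10, adjusted p = 0.00523) in males, -0.27 (SE 0.10, adjusted p = 0.194) in females and -0.42 (SE 0.07, adjusted p = 0.00289) in the mean. The interaction was 0.31, with an interval of 0.01 to 0.61 and an adjusted p of 0.468, so a smaller effect in females was not shown.

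*Timp3*, the matrix-bound inhibitor and the member with the highest level, was estimated at 2293, 1866, 2263 and 2464 CPM in WT males, KO males, WT females and KO females. Its log2FC was -0.30 (SE 0.17) in males and 0.12 (SE 0.17) in females, with intervals of -0.66 to 0.06 and -0.24 to 0.48. *Timp4* was at the other end, with 2.13 and 0.329 CPM in WT and KO males and 1.13 and 0.238 CPM in WT and KO females. Its mean effect of -2.47 (SE 0.58, adjusted p = 0.021) was the largest called in size among the members, and it missed the threshold in males (adjusted p = 0.0574) and in females (adjusted p = 0.224). *Timp1*, which is on chromosome X, had a log2FC of -0.40 in males and 1.55 in females, with SE of 1.02 and 0.86. *Timp1*, *Timp3* and *Timp4* each lie within a synapsin gene on the opposite strand, and for *Timp3* 21.3% of the exon bases are shared with *Syn3*.

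No MMP gene was called in any KO comparison by limma, while 3 of the 11 had an unadjusted p under 0.05 in males, 2 in females, 3 for the interaction and 2 for the mean effect. Among all genes, 2.3% were called higher and 3.17% lower in males, 0.474% and 0.947% in females, and 3.87% and 5.2% in the mean effect. For the interaction the share was 0.543%. With shares this low, the lack of calls is not read as a trait of the family. The gelatinase gene *Mmp2* came closest in the mean effect. It was estimated at 448 CPM in WT males, 336 in KO males, 470.0 in WT females and 326 in KO females, so both KO groups lay below both WT groups. The mean effect was -0.47 (SE 0.14, adjusted p = 0.0545), and the adjusted p was 0.0431 when computed only over genes with a mean of at least 10 CPM, within a range of 0.0431 to 1 over the alternatives. *Mmp14*, the membrane enzyme that activates pro-MMP2, had log2FC of 0.31 (SE 0.14, adjusted p = 0.214) and -0.13 (SE 0.14, adjusted p = 0.677). The male interval was 0.01 to 0.61 and the female interval -0.43 to 0.17. The stromelysin *Mmp3* and the macrophage elastase *Mmp12*, 76.32 kb apart on chromosome 9 and named after their values were seen, had the lowest log2FC in males (-6.94 and -4.56) with SE of 4.40 and 2.27 and intervals that include 0.

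Among the ADAM sheddases, *Adam10* and *Adam17* rose in the mean of both sexes and *Adam19* fell. *Adam10*, which releases Notch receptors, cadherins and other membrane proteins, was estimated at 117 and 136 CPM in WT and KO males and 116 and 160.4 CPM in WT and KO females. Its mean effect was 0.34 (SE 0.10, adjusted p = 0.043). *Adam17*, the TNF-alpha converting enzyme, had 86.1 and 111 CPM in males and 98.9 and 115 CPM in females, with a mean effect of 0.29 (SE 0.08, adjusted p = 0.0422). Neither was called in a single sex, and both KO levels exceeded both WT levels for each gene. *Adam19* was estimated at 20.2 and 11.9 CPM in WT and KO males (log2FC -0.77, SE 0.20, adjusted p = 0.0406) and at 15.6 and 12.2 CPM in females (-0.36, SE 0.21, adjusted p = 0.417). *Adam9*, the most abundant ADAM gene at 196 CPM, had log2FC of 0.21 (SE 0.11) and 0.01 (SE 0.11). *Adam22*, a neuronal ADAM without protease activity, was lower in the mean effect by a log2FC of -0.32 (SE 0.09, adjusted p = 0.0433).

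*Adam33* is the member nearest to *Slc4a11*, 0.366 Mb away on chromosome 2. *Adam33* was estimated at 11.9 and 5.71 CPM in WT and KO males and 7.67 and 5.07 CPM in females. It was not called, with log2FC of -1.06 (SE 0.46, adjusted p = 0.19) and -0.60 (SE 0.51, adjusted p = 0.6).

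Of the subgroups not yet described, *Adam22* above was the 1 gene called in a KO comparison, lower in the mean effect. Among all genes, 3.87% were called higher and 5.2% lower in that effect. In the other comparisons the shares were 2.3% higher and 3.17% lower in males, 0.474% and 0.947% in females, and 0.543% for the interaction. The 5 membrane-bound MMP genes all had log2FC below 0 in females (-0.92 to -0.13) and interactions below 0 (-1.03 to -0.32). Of these 5, 1 had an unadjusted limma p under 0.05 in females and 1 for the interaction. The 3 neuronal ADAM genes had log2FC of -1.50 to -0.27 in males and -0.37 to -0.30 in females. The 5 ADAM genes best known from sperm had log2FC of -0.67 to 0.63 in males and -0.28 to 0.09 in females, at mean levels of 4.04 CPM or less. The other 6 ADAMTS genes had log2FC of -0.99 to 0.22 in males and -2.12 to 0.24 in females. Of these 6, *Adamts10*, whose product acts on fibrillin microfibrils, had the highest mean at 110 CPM and log2FC of -0.67 (SE 0.30, adjusted p = 0.205) and -0.08 (SE 0.30, adjusted p = 0.913), and it was named after its values were seen.

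By family, the median log2FC in males and females was -0.29 and -0.08 for ADAM, -0.42 and -0.35 for ADAMTS, -0.77 and -0.25 for ADAMTSL, -0.22 and -0.23 for MMP, and -0.49 and -0.07 for TIMP genes. By sequence, the 34 members with the histidine motif in either form gave 4 higher and 2 lower calls in the mean effect. The 15 members without it gave 0 higher and 6 lower calls, with 7 at an unadjusted limma p under 0.05 in either direction. That wider form was added after the data had been seen. With the glycine required, the 29 members with the motif gave 2 higher and 2 lower calls. The 20 members without that form gave 2 higher and 6 lower calls. Among all genes, 3.87% were called higher and 5.2% lower. The difference between members with and without a motif was not tested.

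The partners and substrates of ADAM10 and ADAM17 were read from lists of 13 and 23 measured genes. Of the partners, 2 rose in males, the proprotein convertases *Furin* (0.43, SE 0.11, adjusted p = 0.0373) and *Pcsk5* (0.52, SE 0.10, adjusted p = 0.00897), which remove the inhibitory domain of sheddases and were named after their values were seen. Of the substrates, 0 rose and 5 fell in males, and 0 were called in females, where 4 had an unadjusted limma p under 0.05. Among all genes, 2.3% rose and 3.17% fell in males. The hyaluronan receptor *Cd44* was estimated at 25.3 and 7.74 CPM in WT and KO males (log2FC -1.71, SE 0.37, adjusted p = 0.0191) and at 12.3 and 9.31 CPM in females. The adhesion receptor *Icam1* had -1.81 (SE 0.36, adjusted p = 0.0117) in males and 0.04 (SE 0.29) in females. *Vcam1* had -1.26 (SE 0.34, adjusted p = 0.0489) and -1.19 (SE 0.34, adjusted p = 0.106), and the interleukin 6 receptor *Il6ra* had -1.03 (SE 0.24, adjusted p = 0.0251) and 0.08 (SE 0.21). The receptor tyrosine kinase *Axl* was the remaining gene called. All 9 leukocyte markers had log2FC below 0 in males too (median -0.95, none called, 4 at an unadjusted limma p under 0.05), and their part in these values was not tested. For none of the 5 was the interaction called, with 8 of the 23 substrates at an unadjusted limma p under 0.05, so a difference between the sexes was not shown.

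**Figure D4:**
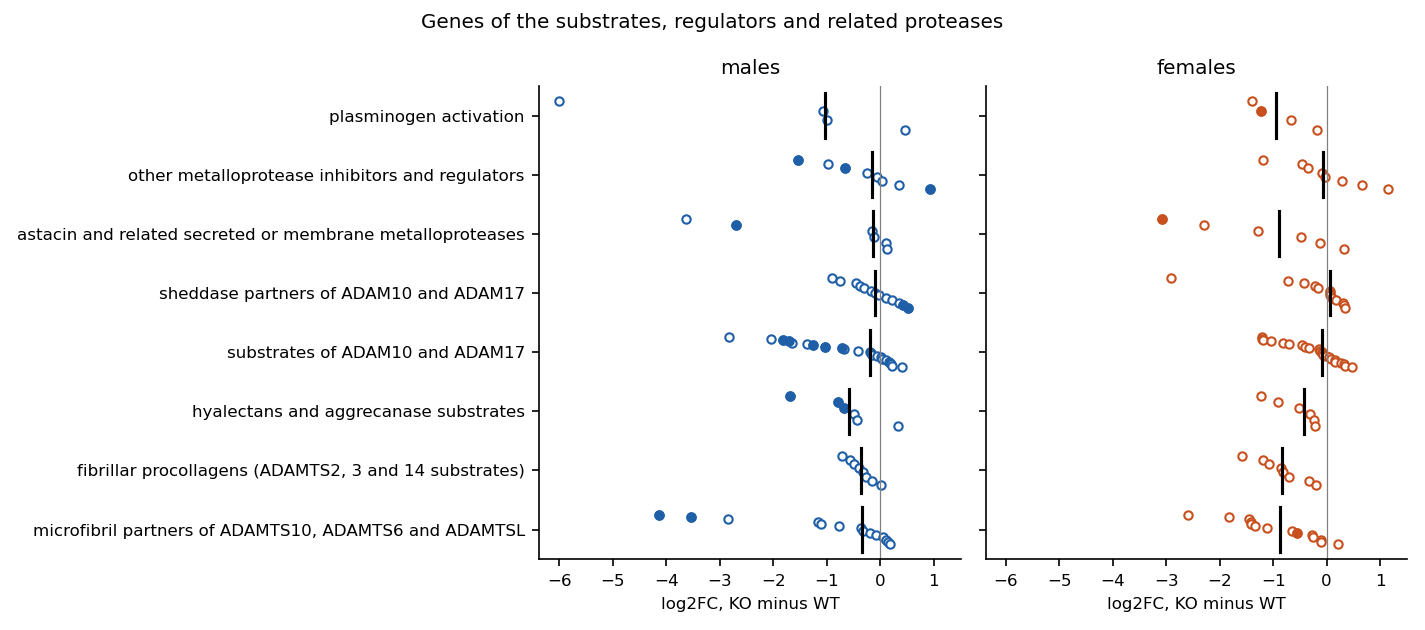
KO minus WT log2FC of the genes in 8 lists of regulators, related proteases and substrates, in males (left) and females (right); each point is a gene, filled points passed an adjusted p of 0.05 and black bars are list medians. Filled points lie below 0 in the substrate and matrix lists of males, where *Vcan*, *Cd44* and *Eln* are found.

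Other proteases and inhibitors that act with these families gave a further difference between the sexes. Of 4 measured genes of plasminogen activation, which starts a cascade that activates MMPs, 1 was called in females and for the interaction. Among all genes, 0.947% fell in females and 0.543% were called for the interaction. The tissue plasminogen activator *Plat* was estimated at 17.5 CPM in WT males, 24.0 in KO males, 34.5 in WT females and 14.6 in KO females. KO minus WT of *Plat* was 0.46 (SE 0.16, adjusted p = 0.113) in males and -1.24 (SE 0.17, adjusted p = 0.00252) in females, the opposite order to *Adamts1*. Of 8 measured inhibitors and regulators, 1 rose (*Bsg*, basigin, an inducer of MMPs) and 2 fell (*Reck*, a membrane inhibitor of MMPs, and *Pcolce2*, an enhancer of procollagen processing) in males. The shares of all genes that rose and fell in males were 2.3% and 3.17%. *Pcolce2* had a log2FC of -1.54 (SE 0.36, adjusted p = 0.0268) in males and -1.20 (SE 0.41, adjusted p = 0.17) in females. The testican gene *Spock1* was called for the interaction (2.13, SE 0.43, adjusted p = 0.0437), with estimates of 69.3 and 35.0 CPM in males and 70.8 and 156 CPM in females. Of 6 measured astacins and related enzymes, *Pappa*, which cuts IGF binding proteins, fell in both sexes, with log2FC of -2.70 (SE 0.71, adjusted p = 0.0421) and -3.08 (SE 0.59, adjusted p = 0.0187) at estimates of 2.68 CPM or less. *Pappa2* was lower in the mean effect (-2.96, SE 0.76, adjusted p = 0.0292).

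The medians of the remaining lists, in males and females, were -0.58 and -0.42 for the hyalectan list, -0.36 and -0.84 for procollagens, -0.19 and -0.10 for sheddase substrates, and -0.10 and 0.06 for sheddase partners. They were -1.03 and -0.95 for plasminogen activation, -0.16 and -0.06 for inhibitors and regulators, and -0.14 and -0.89 for astacins and related enzymes, where all genes had -0.02 and 0.01. The stromal markers, which share *Col1a1*, *Col1a2*, *Col5a1* and *Dcn* with these lists, had medians of -0.53 and -1.08.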

How the data were processed

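Per the labels and the study's methods, the authors sequenced stranded total RNA libraries of low input, aligned paired-end reads to GRCm38 with HISAT2, scaled CPM by TMM and fitted limma with voom to genotype, sex and their interaction. The counter, the annotation release, the versions and the use of strand in counting are not given in the sources used here. The authors deposited 3 tables of the same 15838 genes, which hold the authors' own comparisons and no values per library. The deposited log2FC and mean level are log2 values. The moderated t deposited beside them is a score. Both the raw p-value and that adjusted by Benjamini-Hochberg were deposited.

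Everything else was computed from these columns in Python 3.11.15. The genotype coefficient was read as the effect in 1 sex, since the SE of the interaction was 1.42 times its SE at the median gene (1.41 is expected for 1 sex and 2 for the mean of both). That sex was taken to be male, since the coefficient of 5 Y-linked genes had SE of 0.26 to 0.44, against 1.28 to 3.01 for its sum with the interaction, and that of *Xist* 5.35 against 1.52. The female effect was the sum of genotype and interaction, with a squared SE equal to the difference of their squared SE. The mean effect was genotype plus 0.5 times the interaction, with 0.5 times its SE. Their p-values used 13.8 degrees of freedom, implied by the deposited t and p. Group levels add the coefficients to the mean level, with the sex coefficient (14.6 degrees of freedom, another fit) read as the mean over genotypes. On simulated data, the derived female and mean effects were compared with a direct fit in limma 3.58.1. This covers the arithmetic only, since the simulated coding was set in advance. It cannot decide which sex the genotype coefficient belongs to or how the sex coefficient is coded.

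The labels number no pairs. The members, lists and tests were chosen with earlier results of these data known. Named genes were members called in a KO comparison, all TIMP genes, *Adam10*, *Adam17*, *Mmp2*, *Mmp14*, the 10 highest per kilobase, members within 5 Mb of *Slc4a11*, and list genes called with a log2FC above 1 in size. Positions and exon lengths are from GENCODE M21, which held all 49 members, and promoters from RefSeq, which matched 31. Alternatives were a minimum of 1 or 10 CPM, other adjustments, a fold threshold, equal SE in both sexes, a shift by the median gene and another reading of the sex coefficient.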

Additional observations from a re-analysis of the deposited data

Results flagged for a closer look

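The KO effect of *Adamts1* differed between the sexes, with an interaction of 1.80 (limma, adjusted p = 0.0127), from -0.53 in males and 1.27 in females. The KO effect of *Adamtsl3* differed as well, with an interaction of 0.70 (limma, adjusted p = 0.0448), from -0.21 in males and 0.49 in females. Both rest on the libraries labelled female KO, where *Xist* was estimated at 52.6 CPM against 451 CPM in WT females (SE of the log2FC 1.52, not called). The effects of Y-linked genes in females had a large SE, which covers WT and KO together at low levels. The part these play was not tested.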

How the results depend on the processing

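With a minimum mean of 1 CPM, the members called numbered 6 in males, 3 in females, 2 for the interaction and 11 in the mean effect, against 6, 3, 2 and 12 without it. Under the Benjamini-Yekutieli adjustment they numbered 0, 1 (*Adamts1*), 0 and 2 (*Adamts8* and *Timp2*), and genes of the 8 lists 0, 1, 0 and 4, against 16, 3, 2 and 31. Under Holm's adjustment the members numbered 0, 0, 0 and 1 (*Adamts8*), and the list genes 0, 0, 0 and 0. With a log2FC above 1 in size also required, 1 member was called in males, 1 for the interaction and 2 in the mean effect (*Adamtsl5* and *Timp4*), and 9 and 12 list genes in males and in the mean effect. With 1 adjustment over 3 contrasts, 9 list genes were called in males and 8 in females. In females the list genes called were 11 with a minimum of 10 CPM and 8 with equal SE in both sexes. Other counts were within 1.5 times those reported, and no called effect of a named member changed direction under any of these alternatives or after subtraction of the median protein-coding gene, which turned 1 uncalled effect, that of *Adam9* in females (0.0057 to -0.032). Letting any residue replace the glycine moved the members with the zinc motif from 29 to 34. Reading the sex coefficient as that of WT mice moved the 84 estimated levels by 0.10 at the median and at most 0.49 on the log2 scale, and 12 of them by more than the spread that the SE implies. No paired analysis was possible because the columns carry no replicate numbers, and no library could be left out because the tables hold no values per library.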
